A study of Mus musculus with 2 samples.

Results

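Polycomb repressive complex 1 (PRC1) is described here through the transcripts of 10 of its subunit genes, Ring1, Rnf2, Bmi1, Pcgf1, Pcgf2, Pcgf6, Cbx2, Cbx7, Kdm2b and Rybp. The genes were taken by symbol from a fixed list, which was chosen with earlier results of these data known. All 10 were found among 55414 gene identifiers. All 10 also lay among the 14871 genes called measured, which averaged at least 1 CPM (read counts scaled to library size) over both libraries. The study compared RNA-seq read counts of R1E mouse embryonic stem cells, a wild-type line grown in serum with leukemia inhibitory factor. The untreated library was labelled 0 h, and the other library came from cells kept for 8 h in 0.5 µM Adriamycin (doxorubicin, a topoisomerase II poison that breaks DNA). With 1 library per condition and no untreated library at 8 h, no test between conditions was possible, and the drug, the time and the culture cannot be told apart.

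PRC1 is an E3 ubiquitin ligase that places ubiquitin on histone H2A and helps keep developmental genes silent in embryonic stem cells. Each complex holds a catalytic RING subunit, RING1 or RNF2, paired with 1 PCGF protein, and the PCGF protein sets which further subunits join. Canonical complexes (PCGF2 or BMI1) carry a CBX protein, which reads the methyl mark that PRC2 places on histone H3, and a Polyhomeotic (PHC) protein. Variant complexes carry RYBP or YAF2 in place of CBX, and among them the PCGF1 complex is brought to CpG islands by KDM2B, while the PCGF6 complex uses the DNA-binding proteins MGA, MAX and E2F6.

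The promoters of Pcgf2, the member with the lowest ratio of Adriamycin over untreated, of Ring1, the 1 higher member, and of Pcgf3, the PCGF relative that was higher while Pcgf2 was lower, are shown because these 3 genes carry the contrasts reported here. They run from 250 bases before to 50 bases after the gene start (RefSeq, GRCm38.p6), and CG dinucleotides, the letters that the KDM2B zinc finger recognises, are in capitals.
Pcgf2 (chr11:97699599-97699898, minus strand): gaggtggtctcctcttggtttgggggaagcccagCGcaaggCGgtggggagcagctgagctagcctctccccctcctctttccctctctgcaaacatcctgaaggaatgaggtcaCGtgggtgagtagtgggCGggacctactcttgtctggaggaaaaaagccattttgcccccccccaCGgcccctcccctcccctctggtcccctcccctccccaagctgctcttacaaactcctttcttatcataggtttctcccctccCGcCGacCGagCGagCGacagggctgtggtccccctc
Ring1 (chr17:34024631-34024930, minus strand): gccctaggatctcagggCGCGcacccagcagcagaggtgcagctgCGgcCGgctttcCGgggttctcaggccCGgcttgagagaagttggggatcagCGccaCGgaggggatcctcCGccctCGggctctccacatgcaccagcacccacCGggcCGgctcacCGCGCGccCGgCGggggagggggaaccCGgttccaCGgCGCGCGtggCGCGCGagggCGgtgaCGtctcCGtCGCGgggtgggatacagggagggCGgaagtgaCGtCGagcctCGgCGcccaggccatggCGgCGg
Pcgf3 (chr5:108461009-108461308, plus strand): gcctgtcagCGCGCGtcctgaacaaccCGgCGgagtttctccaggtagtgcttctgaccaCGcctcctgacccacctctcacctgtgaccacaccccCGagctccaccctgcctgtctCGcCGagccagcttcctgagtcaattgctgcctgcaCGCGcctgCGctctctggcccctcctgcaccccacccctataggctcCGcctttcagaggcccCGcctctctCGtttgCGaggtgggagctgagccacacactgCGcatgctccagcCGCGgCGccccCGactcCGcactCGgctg
The Pcgf2 window held 10 CG dinucleotides, the Pcgf3 window 23 and the Ring1 window 37, against a median of 7 over 32851 windows of 300 bases. At least as many as in the Ring1 window occurred in 5.58% of all windows, and at least as many as in the Pcgf2 window in 43.5%. Windows were found for 7 of the 10 members, and their CG number ran from 10 to 49. Sequences that the PCGF6 complex is known to use were searched on both strands, CACGTG (the E-box of MGA and MAX) and GCGGGA (a core of E2F sites). The Pcgf2 window held 1 CACGTG, as 7.15% of all windows did at least once, and 2 GCGGGA, found at least once in 19.98% of windows. Neither sequence was in the Ring1 or the Pcgf3 window. Among the other members, Bmi1 had 1 CACGTG, and Rnf2 and 2 of the 4 Kdm2b windows had 2 GCGGGA each. The CCAAT box and TTTGAA, searched in the same way and found in 37.4% and 17.9% of all windows, were in none of the 3 windows shown.

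Total counts were 41820999 (untreated) and 38561292 (Adriamycin), and TMM factors (an edgeR scaling of library sizes) were 0.951 and 1.05. The label of the cells was checked first. All 7 stem cell markers were measured, at 447 to 1025 CPM in the untreated and 158 to 947 CPM in the Adriamycin library, and 4 of them were at least 2-fold lower with Adriamycin. Of 7 fibroblast markers, 4 (Col3a1, Postn, Lum and Dcn) had no read in either library, and the summed level was 19.0 CPM untreated and 44.5 CPM with Adriamycin, with Col1a1 at 5.38 and 31.9 CPM. Summed endoderm markers stood at 59.8 and 53.5 CPM, neural markers at 156 and 83.2 CPM and mesoderm markers at 4.95 and 9.82 CPM. The neural sum was mostly Tubb3 (141 and 71.3 CPM), and of 4 neural markers Pax6 alone was at least 2-fold lower (151 and 25 reads). Of 4 mesoderm markers, Mesp1 (13 and 206 reads) and T (16 and 89 reads) were at least 2-fold higher, while Kdr had 138 and 80 reads. The part of these shifts in the results below was not tested, and in bulk RNA fewer cells of a type and less RNA per cell cannot be told apart. The p53 target genes Mdm2 (5110 and 37286 reads) and Cdkn1a (2289 and 7240 reads) were higher in the library labelled Adriamycin.

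Of the 10 PRC1 members, 9 had lower levels in the Adriamycin library, 8 of them by less than 2-fold. Pcgf2 was at least 2-fold lower, no member was at least 2-fold higher, and Ring1 alone among the members had a ratio above 1. The median log2 ratio (Adriamycin over untreated, with a pseudocount of 0.5 read) was -0.41 over the members and -0.03 over all measured genes. Of all measured genes 6.95% were at least 2-fold lower, 17% at least 2-fold higher, and 51.6% had a log2 ratio below 0. The 1 lower call among 10 members is thus close to the background share, while the 9 ratios below 0 stand beside a background of 51.6%. Library scaling moves all ratios together: the median of all measured genes was 0.12 when scaled by total counts and -0.15 by upper quartiles. Relative to that median, the members' median was -0.38 under all 4 scalings used. This agreement follows from the common shift and is no separate support. Under each scaling 9 members were below 0.

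**Figure D1:**
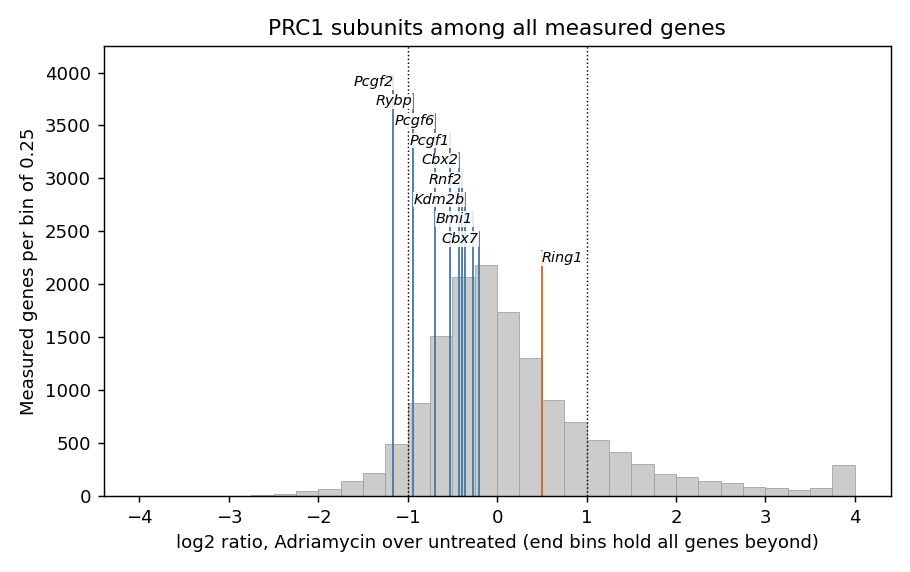
Number of measured genes (vertical axis) per bin of log2 ratio, Adriamycin over untreated (horizontal axis), with a line at the ratio of each of the 10 PRC1 members and dotted lines at 2-fold. Of the members 9 lie left of 0, Pcgf2 at -1.16 is past the 2-fold line, and Ring1 lies at 0.50.

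Per length, the members' transcripts covered a wide range of levels. In the untreated library Pcgf2 (142.6 TPM, a level corrected for the annotated exon length of a gene) and Cbx7 (138 TPM) were highest, followed by Rnf2 at 119 TPM. Rybp (72.8 TPM), Kdm2b (70.5 TPM) and Cbx2 (33.8 TPM) came next, then Pcgf1 (27.2 TPM) and Pcgf6 (24.3 TPM), and Ring1 (10.9 TPM) and Bmi1 (6.89 TPM) were lowest. Exact 95% Poisson intervals, which cover counting error only, overlapped for 3 neighbouring pairs in this order: Pcgf2 with Cbx7, Rybp with Kdm2b, and Pcgf1 with Pcgf6. In the Adriamycin library the order was Cbx7 (129 TPM), Rnf2 (97.7 TPM), Pcgf2 (68.8 TPM), Kdm2b (59.1 TPM), Rybp (40.8 TPM), Cbx2 (27.1 TPM), Pcgf1 (20.4 TPM), Ring1 (16.6 TPM), Pcgf6 (16.2 TPM) and Bmi1 (6.17 TPM). There the intervals of Ring1 and Pcgf6 alone overlapped. Pcgf2 thus went from the first to the third place, and Ring1 passed Pcgf6 by less than counting error.

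**Figure D2:**
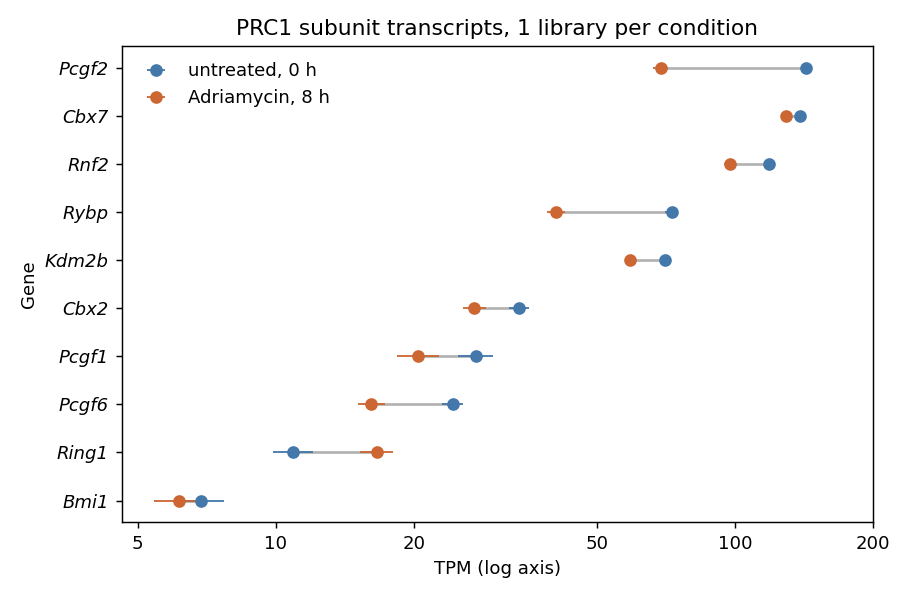
Transcript level in TPM (log axis) of each PRC1 member in the untreated (blue) and the Adriamycin (orange) library, with exact 95% Poisson counting intervals as bars. Ring1 is the 1 member whose orange point lies to the right, at 16.6 against 10.9 TPM, and the widest gap is that of Pcgf2, from 142.6 to 68.8 TPM.

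Transcripts of the catalytic subunits differed in opposite directions, and their levels were closer in the Adriamycin library. Rnf2, which encodes RING1B, the main E3 ligase of PRC1 in embryonic stem cells (ENSMUSG00000026484, chromosome 1, 151333755 to 151376706, GRCm39), had 5481 reads untreated and 4262 with Adriamycin, or 138 and 105 CPM. Its log2 ratio was -0.39, with an exact 95% counting interval from -0.45 to -0.33. Ring1, which encodes the paralogue RING1A (ENSMUSG00000024325, chromosome 17, 34239766 to 34243654), had 395 reads untreated and 569 with Adriamycin, or 9.93 and 14.0 CPM. Its log2 ratio was 0.50, with an interval from 0.31 to 0.69. The library with less Rnf2 was the one with more Ring1. The count ratio of Rnf2 over Ring1, which no library scaling can alter, was 1.85-fold lower in the Adriamycin library (log2 change -0.89, -1.09 to -0.69). Rnf2 still made up most of the pair per length, with 91.6% of the summed TPM untreated and 85.5% with Adriamycin. Of the Rnf2 exon bases, 158 (3.83%) are shared with Trmt1l on the opposite strand, and the counting did not separate strands. Ring1 shares none.

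Rybp and its paralogue Yaf2 were both lower, by less than 2-fold. Rybp, a subunit that stimulates the ligase in variant complexes (ENSMUSG00000072872, chromosome 6, 100205526 to 100264446), had 3858 reads untreated and 2042 with Adriamycin, or 97.0 and 50.4 CPM. The log2 ratio was -0.95 (-1.02 to -0.87). It came close to the 2-fold line without reaching it, and it did pass with upper-quartile factors (-1.07). Yaf2 went from 309 to 186 reads, a log2 ratio of -0.76 with an interval from -1.03 to -0.49. The summed TPM of both genes, taken without TMM factors, was 87.5 untreated and 50.2 with Adriamycin, 0.573 times the untreated level. The count ratio of Rybp over Yaf2 changed by -0.19 on the log2 scale (-0.46 to 0.10), an interval that includes no change. Among the 5 families compared per length, RYBP and YAF2 had the lowest ratio of summed TPM, and the other 4 had 0.877 to 0.963.

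The PCGF subunits, which define the complexes, showed the widest divergence. Pcgf2, which encodes MEL18 of canonical PRC1 (ENSMUSG00000018537, chromosome 11, 97579649 to 97591323), had 5624 reads untreated and 2565 with Adriamycin, or 141 and 63.3 CPM. It was 2.24-fold lower (log2 ratio -1.16, -1.23 to -1.09), and 4.66% of all measured genes had a lower ratio. Its canonical paralogue Bmi1, a known repressor of the Cdkn2a locus (ENSMUSG00000026739, chromosome 2, 18681829 to 18691440), had few reads, 306 and 259, or 7.69 and 6.39 CPM. The log2 ratio of Bmi1 was -0.27 (-0.51 to -0.02), and with counts divided by 2, since mates may have been counted separately, the interval ran from -0.62 to 0.08. A difference in Bmi1 was thus at the edge of what this depth can show. The count ratio of Pcgf2 over Bmi1 was 1.86-fold lower with Adriamycin (log2 change -0.89, -1.15 to -0.64).

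The PCGF members of variant complexes were also lower, by less than 2-fold. Pcgf6, of the complex that keeps germline genes silent in embryonic stem cells (ENSMUSG00000025050, chromosome 19, 47022056 to 47039345), had 1366 reads untreated and 858 with Adriamycin, or 34.3 and 21.2 CPM (log2 ratio -0.70, -0.82 to -0.57). Pcgf1, the partner of KDM2B and BCOR (ENSMUSG00000069678, chromosome 6, 83054850 to 83057836), had 502 reads untreated and 356 with Adriamycin, or 12.6 and 8.78 CPM (log2 ratio -0.52, -0.72 to -0.32). The count ratio of Pcgf6 over Pcgf1 changed by -0.18 on the log2 scale, with an interval from -0.41 to 0.06 that includes no change.

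Pcgf3, a PCGF gene outside the 10 members whose product forms a variant complex with AUTS2 and casein kinase 2, went the other way. It had 5013 reads untreated and 12744 with Adriamycin, or 126 and 314 CPM, and its log2 ratio was 1.32 (1.27 to 1.37). Pcgf5, its closest relative, had 676 reads untreated and 746 with Adriamycin (log2 ratio 0.11, -0.04 to 0.27). The make-up of the PCGF family per length therefore differed between the libraries. Pcgf2 accounted for 56.4% of the summed PCGF TPM untreated and 28.3% with Adriamycin, while Pcgf3 accounted for 18.6% and 51.9%. Pcgf1 went from 10.8% to 8.39%, Pcgf6 from 9.61% to 6.63%, Bmi1 from 2.72% to 2.53% and Pcgf5 from 1.89% to 2.30%. By this measure the leading PCGF gene was that of a canonical subunit in the untreated library and that of a variant subunit in the Adriamycin library. The lengths used, 3526 bases for Pcgf2 and 9544 for Pcgf3, count all annotated exon bases of a gene. Which transcripts were expressed was not examined, so the order of Pcgf2 and Pcgf3 depends on these lengths. The summed PCGF TPM was 252.8 and 243.5. TPM was taken without TMM factors, so a comparison of sums between libraries depends on scaling. Shares within a library do not depend on library scaling, but they do depend on the lengths. Neither Pcgf2 nor Pcgf3 shares exon bases with another gene.

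**Figure D3:**
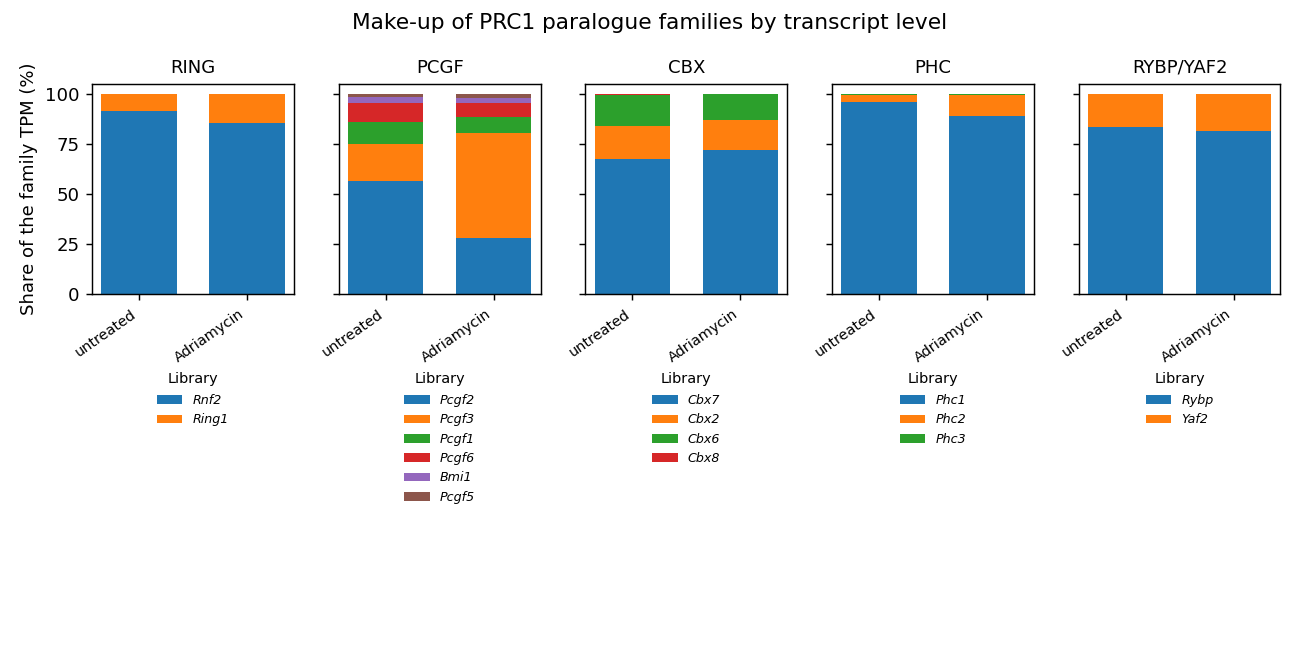
Share of each paralogue gene in the summed TPM of its family (vertical axis, percent) in the untreated and the Adriamycin library, for the RING, PCGF, CBX, PHC and RYBP/YAF2 families. In the PCGF panel Pcgf2 goes from 56.4% to 28.3% and Pcgf3 from 18.6% to 51.9%, while Cbx7, Phc1, Rnf2 and Rybp lead their families in both libraries.

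The chromodomain subunits, which bind methylated histone H3, kept their order. Cbx7, the main CBX gene of undifferentiated mouse stem cells (ENSMUSG00000053411, chromosome 15, 79800008 to 79855320), had 10035 reads untreated and 8864 with Adriamycin, or 252 and 219 CPM (log2 ratio -0.21, -0.25 to -0.17). Cbx2, whose product also compacts chromatin (ENSMUSG00000025577, chromosome 11, 118913788 to 118922096), had 1611 reads untreated and 1218 with Adriamycin, or 40.5 and 30.04 CPM (log2 ratio -0.43, -0.54 to -0.32). The count ratio of Cbx7 over Cbx2 was higher by 0.22 on the log2 scale with Adriamycin (0.11 to 0.34). Of the summed TPM of Cbx2, Cbx6, Cbx7 and Cbx8, Cbx7 made up 67.2% untreated and 71.7% with Adriamycin, and Cbx2 made up 16.4% and 15.01%. Cbx6 had a log2 ratio of -0.57. Cbx8, with 40 and 15 reads, was under the level for measured genes. Exons of Cbx7 share 100 bases (1.54%) with Apobec3 on the other strand (8072 reads untreated and 2893 with Adriamycin).

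Kdm2b, the CXXC zinc finger and demethylase subunit of the PCGF1 complex (ENSMUSG00000029475, chromosome 5, 123008728 to 123127886), had 8562 and 6793 reads, or 215 and 168 CPM. Its log2 ratio was -0.36 (-0.41 to -0.32). Its paralogue Kdm2a, which has a CXXC zinc finger but is not a PRC1 subunit, had a log2 ratio of -0.51, and the count ratio of Kdm2b over Kdm2a was higher by 0.15 with Adriamycin (0.07 to 0.22). Both genes were lower, Kdm2a slightly more. Kdm2b shares 627 exon bases (5.77%) with Rnf34 and 199 with A930024E05Rik, both on the opposite strand, and both of these had lower counts with Adriamycin (2894 and 1966, and 151 and 35 reads).

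A list of other PRC1 genes, which for comparison also holds Kdm2a, had 31 genes matched by symbol, of which 30 were measured, 2 were at least 2-fold higher, 2 at least 2-fold lower and 26 neither. Their median log2 ratio was -0.40, close to that of the members, and 21 were below 0 (19 to 23 over the 4 scalings). Over all measured genes 17% were at least 2-fold higher, 6.95% at least 2-fold lower and 51.6% below 0. The list's median level was 104 CPM. In the decile of mean CPM that held it, from 86.2 to 156, 67.3% of genes were below 0, with a median of -0.25. There 8.14% were at least 2-fold higher and 7.13% at least 2-fold lower. The higher genes of the list were Pcgf3 and Phc2. Phc2, a Polyhomeotic subunit that oligomerises through its SAM domain, went from 1893 to 4553 reads (log2 ratio 1.24, 1.16 to 1.32). Phc1, the leading Polyhomeotic gene, went from 37161 to 29210 reads (log2 ratio -0.38). The count ratio of Phc1 over Phc2 was 3.06-fold lower with Adriamycin (log2 change -1.61, -1.69 to -1.53), the largest change of the 7 pairs compared, and Phc2 went from 3.65% to 10.4% of the summed PHC TPM. The lower genes were Mga and Wdr5. Mga, the E-box binding scaffold of the PCGF6 complex, had 9533 and 4465 reads (-1.12, -1.17 to -1.07), and Wdr5, a WD40 protein shared with other chromatin complexes, had 18192 and 8877 (-1.06, -1.10 to -1.03). With total counts neither Mga nor Wdr5 reached 2-fold.

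**Figure D4:**
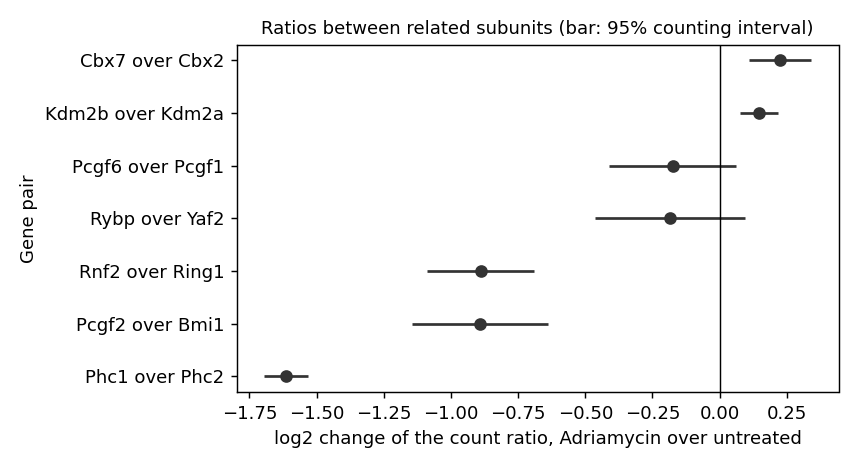
Change of the count ratio between 7 pairs of related genes, Adriamycin over untreated (horizontal axis, log2), with exact conditional 95% counting intervals as bars. The ratios Phc1 over Phc2, Pcgf2 over Bmi1 and Rnf2 over Ring1 lie below 0 at -1.61, -0.89 and -0.89, and the intervals of Rybp over Yaf2 and Pcgf6 over Pcgf1 include 0.

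Of all measured genes 51.6% had log2 ratios below 0, and 72.6% in the highest decile of mean CPM, which held Kdm2b, Skp1a and Usp7. Grouped by complex, the PCGF1 complex was the most uniform in sign. All 6 of its genes (Pcgf1, Kdm2b, Bcor, Bcorl1, Skp1a and Usp7) had log2 ratios below 0, from -0.94 for the corepressor Bcor to -0.36 for Skp1a, and none was 2-fold lower (1 was with upper-quartile factors). In the PCGF6 complex 8 of 10 genes were below 0, with a median of -0.58, and the DNA-binding subunits split. Mga and Max (-0.46) were lower, while E2f6 (0.16) and Tfdp1 (0.05) were slightly above 0 with TMM factors. Of 10 measured canonical genes 7 were below 0 (median -0.24), and Phc2, Scml2 (0.66) and Scmh1 (0.63) were above 0. The PCGF3 and PCGF5 group had a median of -0.08, which was 0.06 with total counts, with Pcgf3 and Fbrs (0.73) highest and the kinase subunit gene Csnk2a1 (-0.71) lowest.

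**Figure D5:**
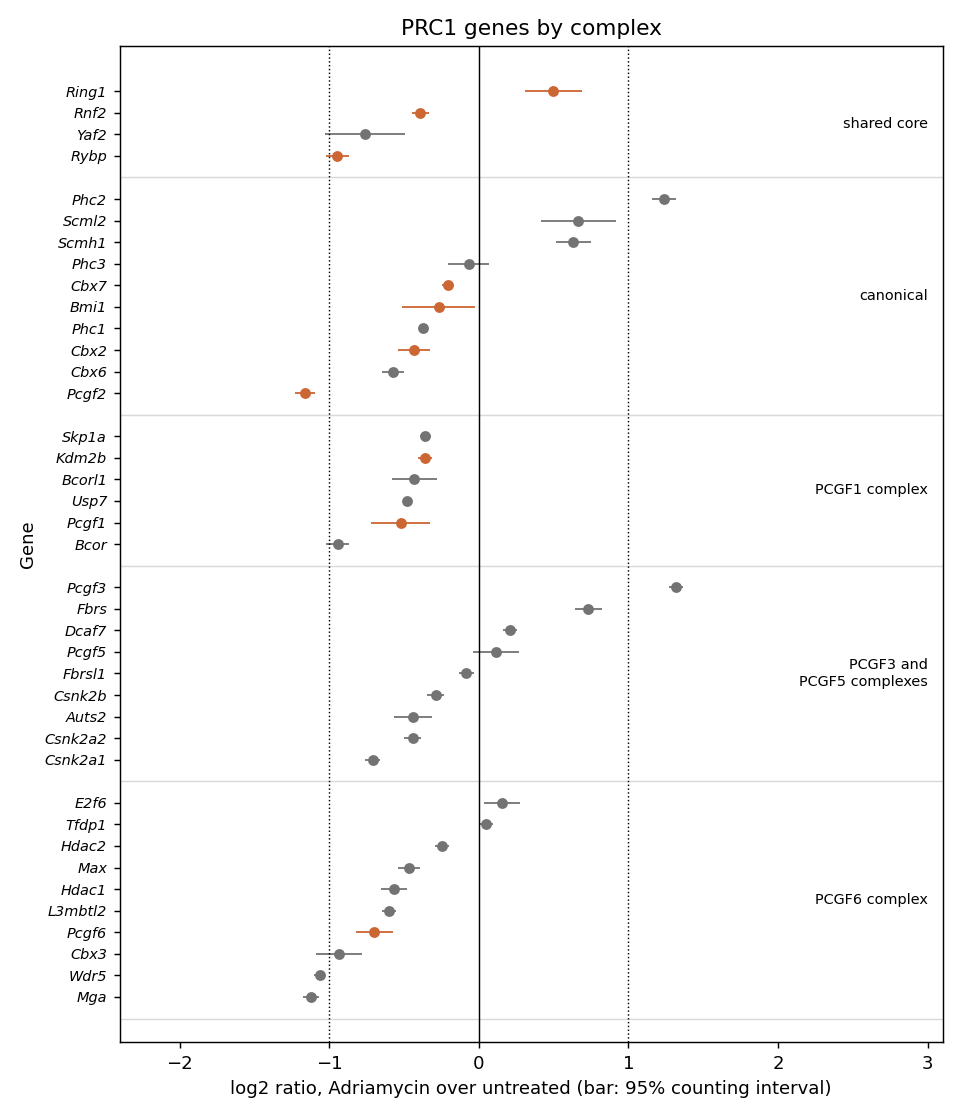
Log2 ratio of Adriamycin over untreated (horizontal axis) for the measured genes of each PRC1 complex, with 95% counting intervals as bars, the 10 members in orange, other genes in grey and dotted lines at 2-fold. All 6 genes of the PCGF1 complex lie left of 0, and Pcgf3 at 1.32 and Phc2 at 1.24 lie right of the 2-fold line.

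Level and gene length were set beside the members' ratios, since neither was used to choose them. Over all measured genes ratios were lower at higher levels: the median log2 ratio was 0.37 in the lowest decile of mean CPM and -0.34 in the highest. Against the median of their own decile of level, 8 of the 10 members were lower, with a median difference of -0.46, and the exceptions were Cbx7 (0.13) and Ring1 (0.35). Kdm2b, in the highest decile, differed from that median by -0.02 and Rnf2 by -0.14 from its own. Pcgf2 differed by -0.91, Rybp by -0.76, Pcgf6 by -0.70 and Pcgf1 by -0.67. Bmi1 differed by -0.49 and Cbx2 by -0.43. By genomic span, from 2987 bases for Pcgf1 to 119159 for Kdm2b, the medians of all deciles lay between -0.14 and 0.07, and 9 members were below the median of their own decile.

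Genes that work against PRC1 or beside it also had medians below 0. Over all measured genes 51.6% were below 0, 6.95% at least 2-fold lower and 17% at least 2-fold higher. Of 10 genes for H2A deubiquitinases and their partners, 9 had log2 ratios below 0 (median -0.34), 6 of 10 with total counts, and 2 were at least 2-fold lower. These were Usp22, a deubiquitinase of the SAGA complex (12526 and 6271 reads, -1.03), and Asxl3 (85 and 35 reads, -1.30). Bap1, the main deubiquitinase of Polycomb-marked H2A, had a log2 ratio of -0.38 and its cofactor Asxl1 -0.85. In the decile of mean CPM that held the median level of the deubiquitinase and partner genes (63.9), 62.1% of genes were below 0. In that decile 4.98% were at least 2-fold lower. PRC2 genes had 6 lower and 1 higher of 12, with a median of -0.90. Their median level (224 CPM) lay in the highest decile. There 72.6% of genes were below 0, 9.68% at least 2-fold lower and 6.52% at least 2-fold higher, with a median of -0.34. Ezh2, the PRC2 methyltransferase gene, had 10925 and 4769 reads (-1.22). The 1 higher gene, Phf1 (250 and 676 reads), shares 39.3% of its exon bases with Cuta on the opposite strand.

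Developmental genes that Polycomb is known to hold silent in embryonic stem cells stayed mostly at very low counts. Of 57 listed, 42 were under the level for measured genes, including 31 of 37 Hox genes, and 6 genes had no read in either library. Of all measured genes 17% were at least 2-fold higher and 6.95% lower. In the decile of mean CPM from 1.93 to 3.85, which held the median level of the measured listed genes (3.40), these shares were 32.5% and 8.81%. Of the 15 listed genes measured, 3 were at least 2-fold higher and 2 lower, with a median log2 ratio of -0.06, which was 0.08 with total counts. Higher were Hoxc13 (73 and 616 reads, 3.04), Pax7 (50 and 399 reads, 2.96) and Hoxb9 (33 and 70 reads, 1.05, 0.44 to 1.70). With upper-quartile factors, a pseudocount of 5 reads or a filter at 5 CPM, 2 genes were higher, without Hoxb9. Lower were Pax6 (151 and 25 reads, -2.60) and Eomes (609 and 119 reads, -2.38). The list had no common direction. Summed over all Hox genes listed, the level was 16.4 CPM untreated and 28.9 CPM with Adriamycin, and without Hoxc13 it was 14.6 and 13.7 CPM. Nkx2-2, named after its values were seen, had 0 and 38 reads, at least 12.4-fold higher against a floor of 3 reads in the untreated library. Other listed genes under the level for measured genes, also named after their values were seen, went both ways. Neurog1 (32 and 4 reads) and Hoxc12 (22 and 4) were lower, and Hoxc6 (4 and 26) and Neurog2 (2 and 16) were higher. Cdkn2a, the locus known for repression by BMI1, had 446 and 436 reads (-0.06, -0.25 to 0.13), a difference not detectable at this depth.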

How the data were processed

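The authors deposited unnormalised read counts by gene in a separate table for each library. Per the file headers, these came from featureCounts 2.0.3 in paired-end mode on exons of GRCm39 (annotation release 105), with no option for strand or for reads overlapping several genes. The submitters' processing notes name HISAT2 2.0.4, featureCounts 1.6.0 and builds mm9 and mm10, which differ from the headers. All gene coordinates here are from the deposited tables. Symbols came from GENCODE M21 by Ensembl identifier (52081 of 55414 matched), and promoter windows from RefSeq on GRCm38.p6 by symbol.

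Counts were scaled with TMM factors (edgeR 4.0.16, R 4.3.3). Log2 ratios with a pseudocount of 0.5 read and exact 95% Clopper-Pearson counting intervals were computed for the whole table (Python 3.11.15, scipy 1.17.1). Both were tested on simulated Poisson counts, which hold counting error only. Conditional odds ratios were computed for the 7 pairs and were not tested on simulated data. TPM used the deposited length column and no TMM factors, so its ratios between libraries are not on the scale of the log2 ratios. The length counts all annotated exon bases of a gene, so orders and shares between genes depend on it. Intervals cover counting error only, and mates that may have been counted separately and PCR copies make them too narrow. A count of 0 allows 3 reads, 0.0754 CPM untreated and 0.0740 CPM with Adriamycin. Counts of genes called higher or lower use 2-fold, and elsewhere these words give the sign of the log2 ratio. With 1 library per condition there are no p-values.

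The members and the 4 gene lists were chosen with earlier results of these data known. Named were all members, their paralogues, up to 6 genes in each direction per list past 2-fold, genes overlapping them and the check genes. Some genes that this rule names, left out of the lists, counts and family sums, are not reported here. The grouping by complex, other genes of complexes, and Bap1, Asxl1, Ezh2, Cdkn2a and the promoter sequences, were named after values were seen. Alternatives were 3 other scalings (total counts, upper quartile, DESeq2 1.42.0 median ratios), 2 other filters, a pseudocount of 5 reads, leaving out genes with opposite-strand overlaps, and calls at 1.5-fold.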

Additional observations from a re-analysis of the deposited data

How the results depend on the processing

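All 10 members kept the sign of their log2 ratio under each alternative in which they were measured. Only the other scalings and the pseudocount could alter a sign, since filters, call sizes and leaving out genes do not change a member's ratio. With total counts 3 of 10 members stayed within their counting interval, and with upper-quartile factors 4. Pcgf2 ranged from -1.28 to -1.02, Rybp from -1.07 to -0.80, Cbx7 from -0.33 to -0.06 and Ring1 from 0.38 to 0.64. With total counts the members' median was -0.27 and that of all measured genes 0.12, 0 other PRC1 genes and 1 antagonist gene were lower, and higher genes were 80.2% of all genes called, against 71.0% with TMM and 61.6% with upper-quartile factors. With upper-quartile factors the medians were -0.53 and -0.15, and 2 members and 4 other PRC1 genes were lower. Of all measured genes, 722 of 14890 were lower with total counts, 1034 of 14871 with TMM and 1395 of 14862 with upper-quartile factors. Higher genes were 2 of 4 other PRC1 genes called with TMM factors, 2 of 2 with total counts and 2 of 6 with upper-quartile factors. At 1.5-fold, 3 members (Pcgf2, Rybp and Pcgf6) were lower, beside 18.9% of all measured genes, 7 other PRC1 genes were lower and 5 higher, and 2805 of all measured genes were lower and 3815 higher. Without a filter on level, 12 of the 57 listed Polycomb targets were lower and 11 higher. Some of these calls rest on very few reads, such as Hoxb3 (2 and 0) and Hoxb8 (1 and 4). Of all genes 4292 were lower and 8514 higher, and the median of all genes was 0.09. At a mean of at least 5 CPM, 1 antagonist gene and 1 Polycomb target were lower, 1417 of all genes were higher, with a median of -0.09. Without genes overlapping on the opposite strand, 7 members had a median of -0.52, 1 Polycomb target was lower and 0 PRC2 genes were higher. Changes with filters and call sizes follow from the genes these admit, and those with other scalings mainly from the common shift of all ratios. The cause of the others was not tested. No paired analysis was possible because each condition has 1 library. Depth limits Bmi1 most: its interval with counts divided by 2 included 0, as that of no other member did.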

Other observations

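Neighbouring genes, read from the deposited positions, add local context for some members, as values only and chosen after they were seen. Commd3 ends 0.786 kb before Bmi1 on the same strand and had 575 reads untreated and 1921 with Adriamycin, a log2 ratio of 1.71, while Bmi1 had -0.27. Cisd3, on the opposite strand 0.201 kb from Pcgf2, had 1975 and 1060 reads, a log2 ratio of -0.93, beside -1.16 for Pcgf2, and Psmb3 on its other side had -0.18. Slc39a7, 3.59 kb from Ring1, had 384 and 436 reads, a log2 ratio of 0.16, and H2-K1 on its other side, 20.4 kb away, had 1142 and 990 reads, a log2 ratio of -0.23.

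Cbx6 and Cbx7, within 147 kb of chromosome 15, had log2 ratios of -0.57 and -0.21.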
